A study of Mus musculus with 18 samples.

Results

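The visual cycle genes of the retinal pigment epithelium (RPE) and Müller glia were followed through 2 tissues and 3 genotypes of mice. The 8 genes were taken by symbol (Rpe65, Lrat, Rdh5, Rgr, Rrh, Rlbp1, Stra6 and Rdh10), and all 8 were found among the 22558 genes of both the retinal and the RPE/choroid table and passed the filter on low counts in both. Each tissue was sequenced from Abca4-/- knockout (KO) mice, from knock-in (KI) mice with the genotype Abca4L541P;A1038V/L541P;A1038V, and from wild-type (WT) mice, with 3 libraries per group and 18 in all. All mice were of a mixed 129SV and C57BL/6 background and were taken at postnatal day 30. The KO lacks an intact Abca4 on both copies, and the KI carries L541P and A1038V on both copies, a pair of substitutions known to impair folding of the protein. Nothing in the labels ties a library to a mouse of its own, so p-values measure only the spread between these libraries, which may be technical.

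The visual cycle turns spent all-trans retinoid back into the 11-cis retinal that opsins need. In the RPE, LRAT joins retinol to a fatty acid, RPE65 isomerizes the ester to 11-cis retinol, RDH5 oxidizes it, and RLBP1 (CRALBP) carries the product. RGR and RRH (peropsin) are opsins of the RPE, STRA6 is the receptor that brings retinol in from the blood, and RDH10 is a retinol dehydrogenase. Müller glia, the radial glia of the retina, also hold RLBP1, RGR and RDH10. ABCA4, the transporter changed in these mice, sits in photoreceptor discs and RPE and moves retinoid adducts across the membrane.

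A retinal library held between 11.6 and 23.6 M (mega) assigned fragments, and an RPE/choroid library between 14.6 and 30.0 M. Abca4 averaged 569.5 ± 42.1 CPM (fragments counted per M fragments of the library) in KO retina, 1523 ± 170 in KI retina and 1858 ± 124 in WT retina (SD, n = 3 each), so its RNA was lowest in the libraries labelled KO. The RPE marker Ttr (transthyretin, a carrier of retinol-binding protein) stood at 3550 to 5859 CPM in every RPE/choroid library. Best1, a chloride channel of the RPE, was at 1.11 to 1.65 CPM in RPE/choroid, against 0.231 to 1.00 CPM in retina. Libraries are named by the number (0 to 2) that the tables give them. Judged by Xist and Ddx3y, KO libraries 1 and 2, all KI libraries and WT library 2 of retina came from females, and so did KI library 2 alone in RPE/choroid. WT RPE/choroid library 2 held 6596 CPM of 12 rod genes summed, against 533 and 717 in the other two.

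The promoters of the members that rose in KO retina, Rpe65, Rgr and Lrat, are shown from RefSeq (GRCm38.p6), 250 bases before to 50 after each gene's start, to set them side by side. RefSeq promoters were at hand for 7 members. Capitals mark the E-box CATGTG, the core bound by MITF in pigment cells, and TAATCC, bound by OTX homeobox factors, each read on both strands. No marked sites overlap.
Rpe65 (chr3:159598931-159599230, plus strand): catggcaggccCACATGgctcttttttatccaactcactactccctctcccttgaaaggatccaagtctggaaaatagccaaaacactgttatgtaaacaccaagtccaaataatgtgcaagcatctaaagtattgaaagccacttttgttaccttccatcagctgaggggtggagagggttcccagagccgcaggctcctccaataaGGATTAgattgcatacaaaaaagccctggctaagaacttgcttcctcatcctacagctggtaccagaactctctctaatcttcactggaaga
Rgr (chr14:37048965-37049264, minus strand): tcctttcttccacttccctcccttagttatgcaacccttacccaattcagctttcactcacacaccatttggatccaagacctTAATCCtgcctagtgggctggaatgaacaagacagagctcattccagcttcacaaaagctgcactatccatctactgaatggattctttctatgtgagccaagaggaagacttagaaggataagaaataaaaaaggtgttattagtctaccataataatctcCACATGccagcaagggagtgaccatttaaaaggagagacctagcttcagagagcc
Lrat (chr3:82903925-82904224, minus strand): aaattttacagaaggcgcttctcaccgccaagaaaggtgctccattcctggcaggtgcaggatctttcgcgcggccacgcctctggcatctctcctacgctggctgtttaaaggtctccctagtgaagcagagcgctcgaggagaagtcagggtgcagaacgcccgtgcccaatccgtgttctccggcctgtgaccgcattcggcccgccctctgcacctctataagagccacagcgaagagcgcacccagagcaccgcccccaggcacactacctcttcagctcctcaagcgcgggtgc
Rpe65 and Rgr each held 1 match to CATGTG and 1 match to TAATCC, and Lrat held neither motif. The 7 members have 10 promoters in the table, 4 of them of Stra6. Of the 10, 3 held CATGTG (those of Rpe65, Rgr and Rlbp1), against 14.2% of 32851 promoters of the same length, and 2 held TAATCC, against 7.06%. The E-box CACGTG, found in 7.15% of promoters, was in 0 of the 10. These are matches of letters and not measured binding sites.

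In the mm9 coordinates of the tables, Rpe65 lies at chr3:159262144-159288271, Lrat at chr3:82680626-82747560 and Rrh at chr3:129511492-129525423, on the chromosome of Abca4. Rrh is 7.63 Mb from Abca4, while Rpe65 and Lrat are 37.4 and 39 Mb away. Rdh5 lies at chr10:128350646-128356353, Rgr at chr14:37850675-37862150, Rlbp1 at chr7:86519755-86531913, Stra6 at chr9:57976894-58001804 and Rdh10 at chr1:16095962-16122631. Lrat's span overlaps that of 4930564K09Rik, so reads of that gene could be counted with it. The span of no other member overlapped a gene.

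Per length, as deposited FPKM (fragments per kilobase of transcript and per M fragments), the opsin Rgr was the most abundant member in WT RPE/choroid, at 1770 ± 69.3 FPKM (SD, n = 3, as for all means below). Rpe65 followed at 1181 ± 106 FPKM. Rlbp1 at 461 ± 37, Rdh5 at 416 ± 32.7 and Rdh10 at 365 ± 38.8 FPKM came next, and neighbours among these 3 differed by less than the sum of their SDs. Lrat at 140 ± 45.3 and Rrh at 139 ± 15.1 FPKM overlapped, and Stra6 was lowest at 77 ± 1.46 FPKM. The order in WT retina was another one. Rlbp1, which Müller glia hold, led there at 254 ± 4.84 FPKM, before Rdh10 at 26.3 ± 0.704 and Rrh at 20.7 ± 0.631 FPKM. Rgr stood at 5.62 ± 0.683, Rdh5 at 3.53 ± 0.841 and Rpe65 at 2.99 ± 0.493 FPKM, and Rdh5 and Rpe65 overlapped. Stra6 at 1.21 ± 0.574 and Lrat at 0.658 ± 0.0994 FPKM were lowest and overlapped too.

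In CPM the tissues were set apart by very different factors. Rpe65 was 335.5-fold higher in WT RPE/choroid than in WT retina, Rgr 300.4-fold, Lrat 174.6-fold, Rdh5 124.5-fold and Stra6 69-fold. Rdh10 was 12.8-fold, Rrh 6.12-fold and Rlbp1 1.81-fold higher. The WT retinal level was thus 0.298% of the RPE/choroid level for Rpe65, 16.3% for Rrh and 55.3% for Rlbp1.

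In KO retina the genes of the ester and isomerase steps and the opsin Rgr were higher than in WT retina. Of the 8 members, 3 rose (Rpe65, Rgr and Lrat), 0 fell and 5 did not pass the threshold, an adjusted p under 0.05 in edgeR's quasi-likelihood test over 14699 genes. Of all these genes 0.98% passed, 0.483% higher and 0.497% lower. The members' median log2 fold change was 0.86, and that of all genes was -0.00.

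Rpe65, the isomerase, had 23.2, 13.9 and 13.2 CPM in KO retina, 10.7, 10.7 and 11.9 in KI retina, and 6.16, 5.72 and 6.49 in WT retina. The 3 genotypes did not overlap, and KO library 0 stood apart above the other KO libraries. KO over WT was log2 1.48 (SE 0.18, adjusted p = 0.00222, edgeR), and the call held without each library in turn. The raw fragments behind these levels were 466, 301 and 179 in KO, 246, 252 and 226 in KI, and 97, 77 and 75 in WT. By sex, the single male KO library had 23.2 CPM against 6.16 and 5.72 in the male WT libraries, and the female KO libraries had 13.9 and 13.2 against 6.49 in the female WT library.

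Rgr, the opsin of the RPE and Müller glia, had 34.0, 19.6 and 20.2 CPM in KO retina, 15.7, 19.7 and 20.1 in KI retina, and 9.46, 8.1 and 10.1 in WT retina. Both mutants lay above every WT library, and KO and KI overlapped. KO over WT was log2 1.44 (SE 0.21, adjusted p = 0.0178, edgeR). The call was lost without WT library 0, 1 or 2, with adjusted p from 0.0758 to 0.127.

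Lrat, which makes the retinyl esters that RPE65 uses, had 11.8, 7.39 and 5.37 CPM in KO retina, 6.8, 6.91 and 6.09 in KI retina, and 3.68, 3.86 and 3.98 in WT retina. Here too every mutant library was above every WT library, and KO library 0 was the highest. KO over WT was log2 1.12 (SE 0.22, adjusted p = 0.0288, edgeR). Without KO library 1 or any of the 3 WT libraries the adjusted p was 0.0562 to 0.144.

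Rdh5, the 11-cis retinol dehydrogenase, had 8.23, 6.28 and 3.82 CPM in KO retina, 4.92, 5.98 and 3.99 in KI retina, and 2.73, 3.86 and 3.12 in WT retina. KO library 2 fell within the WT range. KO over WT was log2 0.95 (SE 0.24, adjusted p = 0.1, edgeR), not past the threshold. DESeq2 called it (adjusted p = 0.0304), and so did edgeR without KO library 2 (adjusted p = 0.0302). Stra6, the retinol receptor, had 4.09, 3.74 and 5.3 CPM in KO retina, 3.14, 3.52 and 3.2 in KI retina, and 3.36, 2.45 and 1.9 in WT retina. The KO libraries lay above the WT libraries, and the KI libraries overlapped them. KO over WT was log2 0.76 (SE 0.23, adjusted p = 0.153, edgeR).

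The members with the highest WT retinal levels had smaller differences. Rrh had 28.8, 27.8 and 26.4 CPM in KO retina, 22, 25.8 and 26 in KI retina, and 24.4, 28.2 and 27.7 in WT retina, with log2 0.08 (SE 0.08, adjusted p = 0.767, edgeR) for KO over WT. Rdh10 had 65.8, 64.3 and 48.9 CPM in KO retina, 62.5, 65.4 and 58.5 in KI retina, and 56.5, 54.8 and 52 in WT retina. For Rdh10, KO over WT was log2 0.16 (SE 0.08, adjusted p = 0.438, edgeR). Rlbp1 had 454, 465 and 362 CPM in KO retina, 460, 503 and 508 in KI retina, and 512, 508 and 552 in WT retina. Every KO library of Rlbp1 lay below every WT library, at log2 -0.27 (SE 0.07, adjusted p = 0.101, edgeR). DESeq2 called this lower level (adjusted p = 0.0119).

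**Figure D1:**
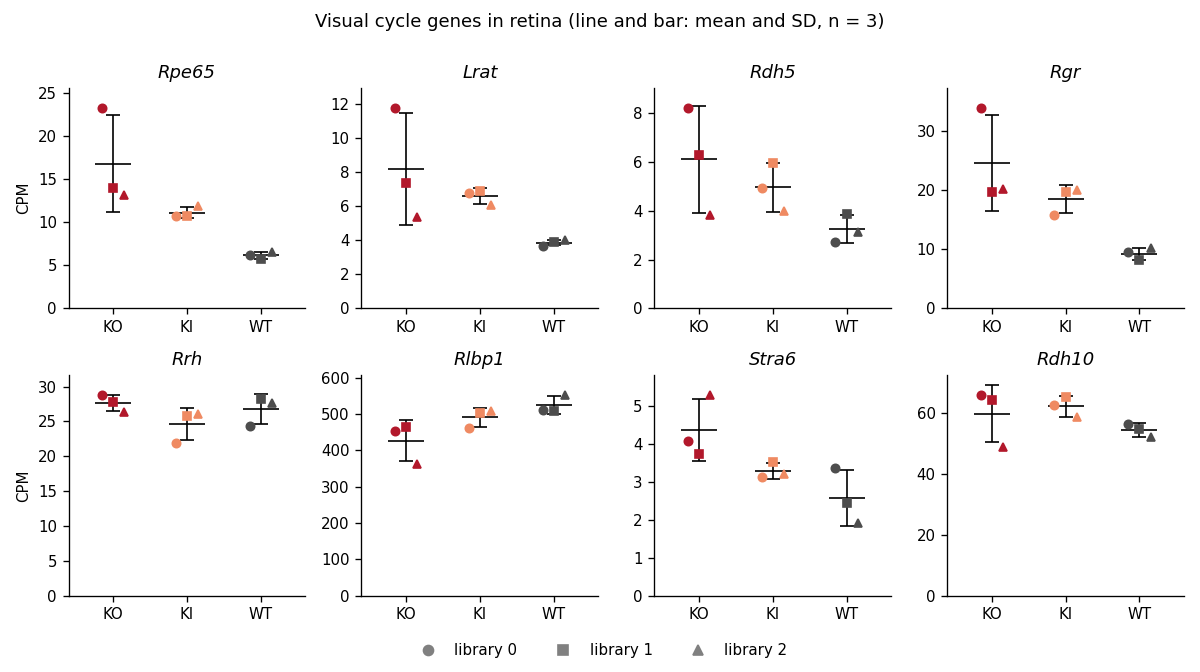
CPM of the 8 visual cycle genes in each retinal library of KO, KI and WT mice, with the group mean and SD (n = 3). Rpe65, Rgr and Lrat of every mutant library lie above the WT libraries, and KO library 0 (circle) is highest, at 23.2 CPM for Rpe65, while Rlbp1 of the KO lies below WT.

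By non-overlap in CPM, 4 of the 8 members were higher in every KO retinal library than in every WT one (Rpe65, Rgr, Lrat and Stra6), and 1 was lower (Rlbp1). Of all genes tested, 6.34% were higher in this sense and 10.5% lower. In KI retina 5 of 8 were higher (Rpe65, Rgr, Lrat, Rdh5 and Rdh10) and 0 lower, against 8.65% and 6.44% of all genes.

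The mean of KI retina lay between those of KO and WT for Rpe65, Rgr, Lrat, Rdh5 and Stra6. KI over WT was log2 0.84 (SE 0.19, adjusted p = 0.121) for Rpe65, 0.99 (SE 0.21, adjusted p = 0.145) for Rgr and 0.77 (SE 0.22, adjusted p = 0.251) for Lrat. Rdh5 was at log2 0.61 and Stra6 at 0.32. No member (0 of 8) passed edgeR's threshold, while 0.265% of all genes did (0.143% higher). At an unadjusted p under 0.05 there were 5 members and 8.5% of all genes, and DESeq2 called 2 (Rpe65, adjusted p = 0.0087, and Rgr, adjusted p = 0.000254). A fit of KI and WT alone also called Rpe65 and Rgr, with adjusted p of 0.0102 and 0.00511. The members' median was log2 0.47, and that of all genes 0.00.

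Set against KO retina, KI retina had log2 -0.64 for Rpe65 (SE 0.17, adjusted p = 0.109, edgeR), -0.45 for Rgr and -0.35 for Lrat. No member (0 of 8) passed, against 1.26% of all genes (0.68% higher), 4 had an unadjusted p under 0.05 (11.7% of all genes), and DESeq2 called 1 (Rpe65). KI libraries lay below all KO libraries for 3 members (Rpe65, Rrh and Stra6) and above them for 0, while 4.25% of all genes were lower and 12.2% higher in this sense. The authors' deposited table gave q = 0.00293 for Rpe65, Lrat, Rdh5 and Rgr in KO against WT retina. The authors' deposited table gave the same q for Rpe65, Lrat and Rgr in KI against WT, and 0.00293 for Rpe65 and 0.0402 for Rgr in KI against KO.

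In RPE/choroid, where these genes are at home, no member passed. Rpe65 had 2037, 1922 and 1735 CPM in KO RPE/choroid, 1840, 2161 and 2172 in KI, and 2155, 2184 and 1824 in WT. The genotypes overlapped, with log2 -0.14 (SE 0.11, adjusted p = 0.58) for KO over WT and -0.01 (SE 0.11, adjusted p = 0.995) for KI over WT in edgeR. Rgr had 2508, 2471 and 2165 CPM in KO, 2243, 2480 and 2938 in KI, and 2855, 2819 and 2640 in WT. Its KO libraries lay below all WT libraries, at log2 -0.24 (SE 0.11, adjusted p = 0.333, edgeR). Lrat had 695, 613 and 634 CPM in KO, 891, 780 and 768 in KI, and 563, 706 and 744 in WT. Its KI libraries lay above all others, at log2 0.27 (SE 0.11, adjusted p = 0.853, edgeR) over WT.

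Of KO over WT in RPE/choroid, the other 5 members ranged from log2 -0.23 (Rrh) to 0.02 (Stra6), and of KI over WT from -0.08 (Stra6) to 0.13 (Rlbp1 and Rdh10). For KO against WT, 0 of 8 members were called in edgeR (0.472% of all genes, 0.252% lower), 0 had an unadjusted p under 0.05 (15.5% of all genes), and DESeq2 called 0. For KI against WT, 0 of 8 were called (0.0647% of all genes, 0.0324% in each direction), 1 had an unadjusted p under 0.05 (Lrat; 5.53% of all genes), and DESeq2 called 0. For KI against KO, 0 of 8 were called (0.453% of all genes), 2 had an unadjusted p under 0.05 (Lrat and Rlbp1; 12.2% of all genes), and DESeq2 called 0. Without WT library 2, which held the most rod RNA, 0 of 8 were called in either mutant against WT. By non-overlap, 1 member was lower in every KO library than in every WT one (Rgr; 9.29% of all genes). In KI against WT, 1 was higher (Lrat; 6.11% of all genes) and 0 lower (3.66%). In KI against KO, 2 were higher (Lrat and Rlbp1; 9.51% of all genes) and 1 lower (Stra6; 12.7%). A level that differs in these bulk samples cannot tell fewer or more cells from less or more RNA per cell.

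**Figure D2:**
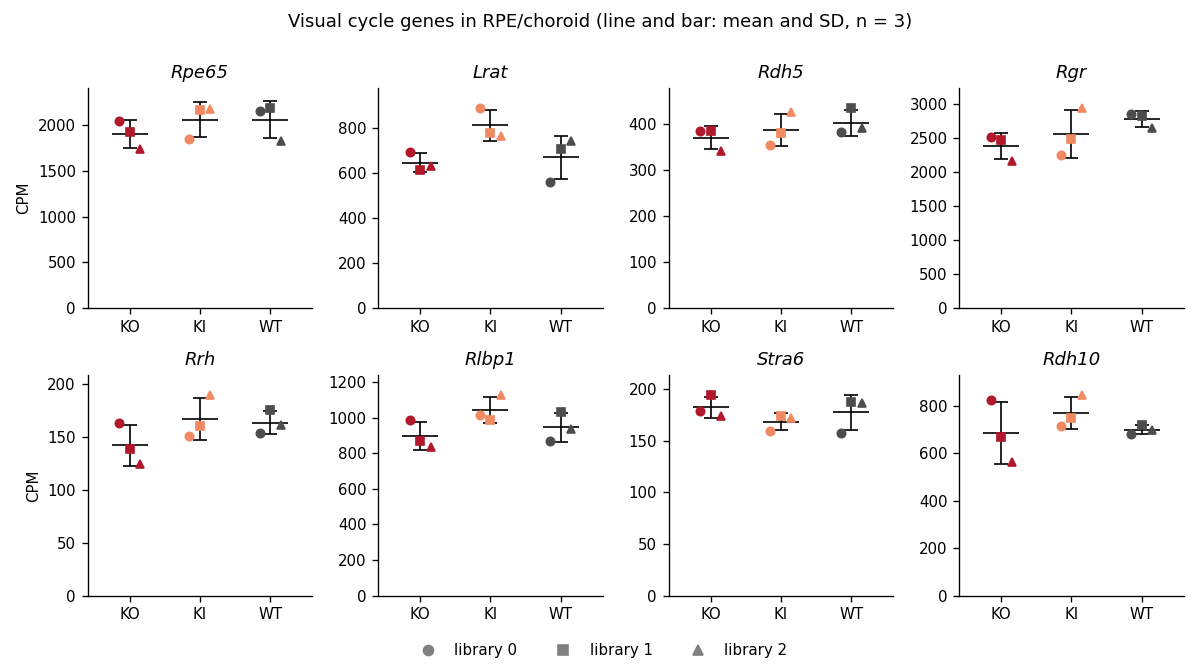
CPM of the 8 visual cycle genes in each RPE/choroid library of KO, KI and WT mice, with the group mean and SD (n = 3). Rpe65 lies between 1735 and 2184 CPM in all 9 libraries, Rgr of the KO lies below WT, and Lrat of the KI above WT.

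The KO effect on Rpe65 and Rgr differed between the tissues. In a fit of all 18 libraries, the effect in RPE/choroid minus that in retina was log2 -1.61 for Rpe65 (SE 0.22, adjusted p = 0.00565, edgeR) and -1.67 for Rgr (SE 0.24, adjusted p = 0.00977). These were 2 of 8 members, against 0.136% of 16222 genes. Lrat was at log2 -1.18 (SE 0.26, adjusted p = 0.0986), Rdh5 at -1.09 (adjusted p = 0.12) and Stra6 at -0.71 (adjusted p = 0.196). For the KI effect 0 of 8 passed (0.0555% of all genes), 3 had an unadjusted p under 0.05 (5.98% of all genes), and DESeq2 called 1 (Rgr). The largest in size was Rgr at log2 -1.13 (SE 0.24, adjusted p = 0.21, edgeR).

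**Figure D3:**
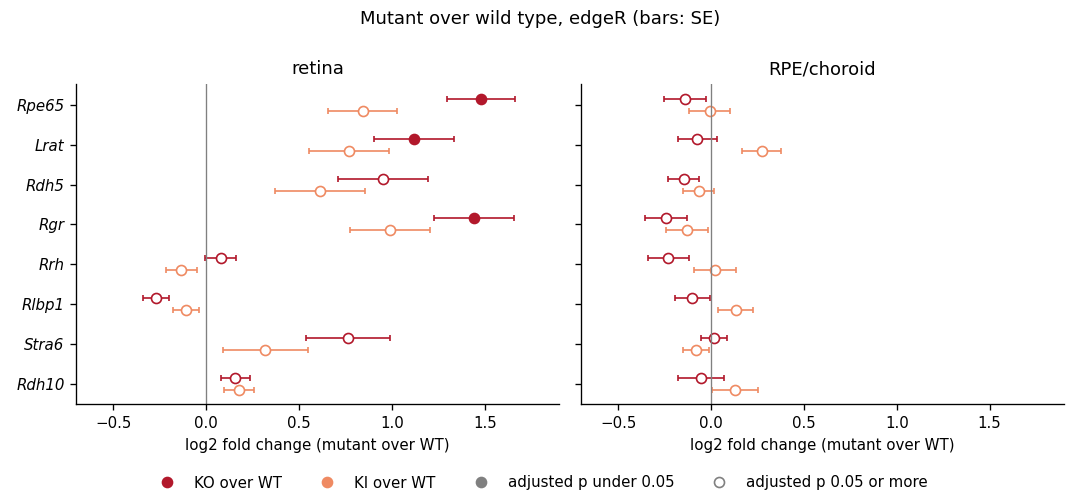
Log2 fold change of KO over WT and KI over WT for each visual cycle gene in retina (left) and RPE/choroid (right), with the SE from edgeR; filled points have an adjusted p under 0.05. In retina Rpe65, Rgr and Lrat of the KO are filled, at 1.48, 1.44 and 1.12, and no point in RPE/choroid is.

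RPE can stay on the retina at dissection, and the rise was set against the level of each gene in RPE/choroid. For each gene the rise in mutant retina over WT retina was divided by the WT RPE/choroid level over the WT retinal one, in percent. The measure was taken first on 11 RPE markers that are no members and stood at least 10-fold higher in WT RPE/choroid. Their median share was 0.492% in KO retina, with 0.77%, 0.541% and 0.258% in KO libraries 0, 1 and 2. In KI retina the median share was 0.402%, with 0.341%, 0.246% and 0.313% in the single libraries. Among the most abundant markers the KO share was 0.373% for Ttr, 1.09% for Slc16a8 (a lactate transporter), 0.455% for Kcnj13 (a potassium channel) and 0.428% for Enpp2 (autotaxin).

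Of the members, 6 were at least 10-fold higher in RPE/choroid. In KO retina the share was 0.52% for Rpe65, 0.557% for Rgr, 0.649% for Lrat, 0.719% for Rdh5, 1.03% for Stra6 and 0.81% for Rdh10. In KI retina it was 0.242% for Rpe65, 0.336% for Rgr, 0.413% for Lrat, 0.432% for Rdh5, 0.407% for Stra6 and 1.2% for Rdh10. The medians over these 6 were 0.684% in KO and 0.41% in KI retina. All 6 KO shares lay above the marker median of 0.492%, while the KI shares lay on both sides of the marker median of 0.402%. The 6 members were read in the same 3 libraries and are not separate observations. Over the KO libraries the SD of the share was 0.274 for Rpe65, 0.293 for Rgr, 0.49 for Lrat and 0.552 for Rdh5. It was 0.467 for Stra6 and 1.45 for Rdh10, and 0.257 for the marker median. The single shares of the 11 markers were spread more widely, from 0.139% to 14.5% in KO and from -0.4% to 11.8% in KI, with Cldn19 (a tight junction protein) at the top in both.

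**Figure D4:**
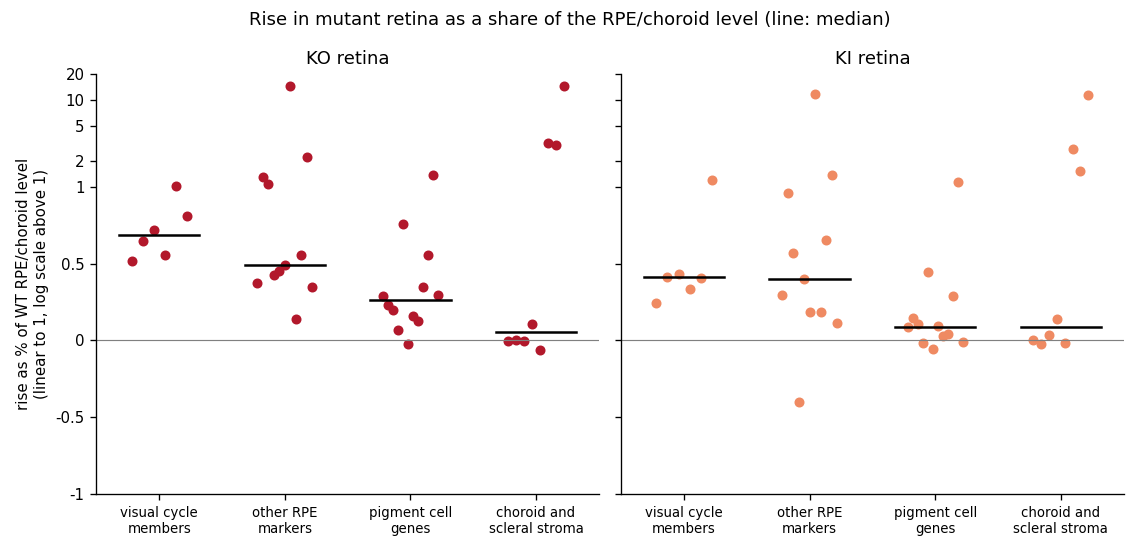
Rise in KO (left) and KI (right) retina over WT retina as a percentage of the WT RPE/choroid level over the WT retinal one, for genes at least 10-fold higher in RPE/choroid (points) and the median of each list (lines); the axis is linear up to 1 and logarithmic above. In KO retina the medians are 0.684% for the visual cycle genes, 0.492% for other RPE markers, 0.261% for pigment cell genes and 0.0547% for stroma.

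From the marker share follows a level for each member in mutant retina. For Rpe65 it is 16.2 CPM in KO retina, and 16.8 ± 5.61 CPM were measured. By library, the shares of the markers give 21.9, 17.2 and 11.4 CPM in KO libraries 0, 1 and 2, against 23.2, 13.9 and 13.2 measured. For 5 of the 8 members (Rpe65, Lrat, Rdh5, Rrh and Rdh10) the measured levels put the 3 KO libraries in the order that the shares give, and in KI retina for 0 of 8. The members were read in the same 3 libraries and are not separate observations of that order. Most of the RPE markers were themselves in another order in KO retina, and the share of all genes in this order was not counted. Measured Rpe65 differed little between KO libraries 1 and 2. Median shares of pigment cell genes were 0.17%, 0.3% and 0.138% in KO libraries 0, 1 and 2, which is another order. For Rgr the share gives 22.8 CPM, with 24.6 ± 8.11 measured, and for Lrat 7.13 CPM, with 8.17 ± 3.27 measured. For Rdh5 it gives 5.21 CPM (6.11 ± 2.21 measured) and for Stra6 3.44 CPM (4.37 ± 0.817 measured). Of these 5, 4 differed by less than 1 SD of the KO libraries, and Stra6 by more. The median share of pigment cell genes gives lower levels in KO retina, 11.48 CPM for Rpe65 and 16.45 CPM for Rgr. For Rpe65 that is a rise of 5.354 CPM over WT retina, against 10.64 CPM measured. In KI retina the pigment share gives 7.966 CPM for Rpe65, below the 11.09 CPM measured. How near the given levels come to the measured ones thus depends on the gene list.

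For the members least enriched in RPE/choroid the share of the RPE markers gives small rises. It gives 57.6 CPM for Rdh10, with 59.7 ± 9.34 measured in KO retina, and 27.4 CPM for Rrh, with 27.7 ± 1.19 measured. For Rlbp1 it gives 526 CPM, and 427 ± 56.6 CPM were measured, which is lower than in WT retina. In KI retina the share gives 14.4 CPM for Rpe65, above the 11.1 ± 0.668 measured, and 20.3 CPM for Rgr, with 18.5 ± 2.41 measured. The KI share of 0.402% lies above the medians of all single KI libraries. By library, the shares give 13.1, 11.2 and 12.5 CPM for Rpe65 in KI libraries 0, 1 and 2, against 10.7, 10.7 and 11.9 measured. For Lrat it gives 6.52 CPM in KI retina (6.6 ± 0.447 measured), for Rdh5 4.84 CPM (4.96 ± 0.997 measured) and for Stra6 3.28 CPM (3.29 ± 0.205 measured). For Rdh10 it gives 57.0 CPM in KI retina (62.1 ± 3.44 measured), for Rrh 27.3 CPM (24.6 ± 2.28 measured) and for Rlbp1 525.5 CPM (490.5 ± 26.3 measured). Over all 8 members, 6 differed by no more than 1 SD of the libraries in KO retina (not Stra6 and Rlbp1), and 4 in KI retina (Rgr, Lrat, Rdh5 and Stra6). For Rrh and Rdh10 the WT retinal means, 26.77 and 54.45 CPM, also lay within 1 SD of the KO mean. For these genes the count therefore cannot tell the given level from the WT level. The SD used is that of the mutant libraries and leaves out the spread of the marker shares. The share is a description with no test, and whether RPE RNA in the retinal samples makes up the rise was not tested.

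**Figure D5:**
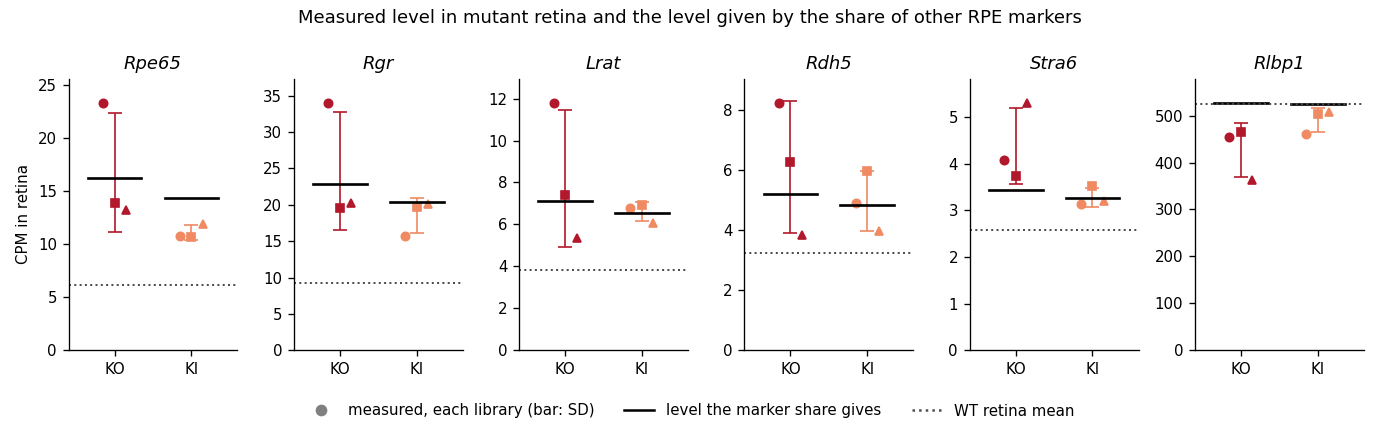
CPM in each KO and KI retinal library (points, with SD bars), the level that the median share of 11 other RPE markers gives (black line) and the WT retinal mean (dotted line) for 6 visual cycle genes. Rpe65 of the KO is at 16.8 CPM with the line at 16.2, and Rlbp1 is the gene whose KO libraries lie below both lines.

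Other genes of the RPE/choroid had other shares. Pigment cell genes, which RPE and choroidal melanocytes share, had a median of 0.261% in KO and 0.09% in KI retina over 12 genes. Tyrp1, a melanin enzyme, was at 0.233% and 0.148%, and Pmel, the fibril protein of melanosomes, at 0.07% and -0.0183%. Stroma of choroid and sclera had a median of 0.0547% in KO and 0.0872% in KI over 8 genes, which differed widely among themselves. Dcn (decorin), Lum (lumican), Col1a1 and Col3a1 (collagens) lay between -0.0599% and 0.0363% in KO and KI. Col1a2, a collagen, stood at 0.11% in KO and 0.138% in KI, Ogn at 3.06% and 1.51%, Fmod at 3.17% and 2.75%, and Fbln1 at 14.5% and 11.6%. The list median thus lies between the 4 genes nearest 0 and the other 4. Summed over the 14 measured RPE markers, KO retina had 257 to 326 CPM, KI retina 267 to 301 and WT retina 217 to 249, and no marker was at 0. Of them 1 rose in KO retina (Slc6a20a, an amino acid transporter, log2 1.16, adjusted p = 0.0239, edgeR), 0 fell and 13 did not pass. Of 10 tested pigment genes 1 rose (Oca2, log2 1.54, adjusted p = 0.0133) and 0 fell.

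With a term for the level of these RPE markers in the fit, 0 of the 8 members were called in KO retina. Rpe65 was then at log2 1.54 (SE 0.47, adjusted p = 0.851, edgeR), Rgr at 1.86 (SE 0.52, adjusted p = 0.806) and Lrat at 1.14 (SE 0.54, adjusted p = 1.00). Without the term Rpe65 was at log2 1.48 (SE 0.18), Rgr at 1.44 (SE 0.21) and Lrat at 1.12 (SE 0.22). The SEs thus rose with the term, and the estimates did not shrink. The term was the mean log2 CPM of the markers, not their sum. Of the 14 markers, 13 had a log2 fold change above 0 in KO against WT retina, so the term moves with genotype. How well the fit separates the term from genotype was not measured, and what the lost calls mean was not tested. Lens genes varied between libraries, and 0 of 13 passed in KO against WT retina, with a median log2 of 4.36. Their sum was 298, 4157 and 9823 CPM in KO retina, 4795, 197 and 268 in KI retina, and 436, 104 and 25.6 in WT retina. The mean lens sum was 4760 CPM in KO, 1753 in KI and 189 in WT retina, the same order of genotypes as for mean Rpe65. Within KO retina, Rpe65 was highest in library 0, the KO library with the least lens RNA. Whether lens RNA has a part in the rise was not tested. With a term for lens genes Rpe65, Rgr and Lrat kept their calls in KO retina, at log2 1.79, 1.83 and 1.45, and Rpe65 and Rgr were called in KI retina, at log2 1.04 and 1.23.

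The ratios of the members to each other were read within each library, as fragments per 100 fragments of Rpe65. Rgr stood at 141 to 154 in KO retina, 147 to 184 in KI retina and 142 to 156 in WT retina, and at 123 to 129 in KO RPE/choroid, 115 to 135 in KI and 129 to 145 in WT. Lrat stood at 40.8 to 53.2 in KO retina, 51.3 to 64.7 in KI retina and 59.8 to 67.5 in WT retina, while RPE/choroid had 31.9 to 36.6 in KO, 35.4 to 48.4 in KI and 26.1 to 40.8 in WT. For Lrat, every KO retinal library lay below every WT retinal one. Rdh5 had 29.1 to 45.2 in KO retina, 33.6 to 55.9 in KI retina and 44.3 to 67.5 in WT retina, and 17.7 to 21.5 in all 9 RPE/choroid libraries. For Rrh the mean was 175 in KO retina, 222 in KI retina and 439 in WT retina, and for Rlbp1 it was 2682, 4429 and 8563. Rpe65, the denominator, was itself at 2.74 times its WT level in KO retina and 1.81 times in KI retina. Rrh was at 1.03 and 0.919 times its WT CPM, and Rlbp1 at 0.815 and 0.937 times. The lower ratios of Rrh and Rlbp1 thus come mostly from the denominator.

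Müller glia, which also hold Rlbp1, Rgr and Rdh10, were followed by 12 markers that are no members. These markers are not particular to retina: their sum averaged 8467 CPM in WT RPE/choroid and 6714 CPM in WT retina. Their sum was 6550 to 7463 CPM in KO retina, 6519 to 6842 in KI retina and 6554 to 6941 in WT retina. In KO against WT retina 1 rose (Clu, clusterin, log2 0.54, SE 0.07, adjusted p = 0.00142, edgeR), 0 fell and 11 did not pass, with a median log2 of 0.20. By non-overlap, 6 of the 12 were higher in KO than in WT retina and 1 lower, against 6.34% and 10.5% of all genes. Clu averaged 1682 CPM in WT RPE/choroid and 434 CPM in WT retina, while Glul averaged 2094 and 3559 CPM. Glul, the glutamine synthetase of Müller glia, averaged 3528 ± 230 CPM in KO retina and 3559 ± 201 CPM in WT retina. In KI against WT retina 0 of 12 passed. Rods, summed over 12 genes, had 61630 to 62930 CPM in KO retina, 62140 to 64570 in KI retina and 65340 to 68270 in WT retina, and 0 of 12 passed in either mutant against WT.

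Rlbp1 is listed with 2 transcripts, of 2121 and 2202 bases. The longer one made up 15.7% ± 0.648 of the gene's FPKM in KO retina, 24.2% ± 2.28 in KI retina and 26.1% ± 3.06 in WT retina. The KO libraries (15.1% to 16.4%) lay below all WT libraries (23.5% to 29.5%), with p = 0.1 in a two-sided exact permutation test, the smallest that 3 against 3 libraries allow, and 0.2 when adjusted over 4 tests. In RPE/choroid the longer transcript made up 22.4% ± 2.12 in KO, 33.2% ± 4.15 in KI and 24.7% ± 4.46 in WT. There KI lay above WT (exact permutation p = 0.1), and KO did not differ beyond the spread (exact permutation p = 0.7). Stra6 has 4 transcripts, of which that of 2767 bases made up 85.2% in KO, 86.2% in KI and 84.3% in WT RPE/choroid. In retina its shares ran from 5.75% to 100% between single libraries, at totals of 0.669 to 2.18 FPKM.

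Of 30 other retinoid genes found in the tables, 26 were tested in retina. In KO against WT retina 0 rose and 1 fell, Abca4 itself (log2 -1.68, SE 0.08, adjusted p = 4.32e-08, edgeR), and 25 did not pass, with a median log2 of 0.12. In KI against WT retina 0 of 26 passed, and in KI against KO 1 was higher (Abca4, log2 1.38) and 0 lower. In RPE/choroid 0 of 29 passed in any of the 3 comparisons.

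The genes most like Rpe65 over the 9 retinal libraries, by Pearson's r of log2 CPM among 11822 genes, were Ptprz1 (r = 0.935), Lmo1 (0.935), Rwdd4a (0.929), Ext2 (0.928) and Slc16a8 (0.925). Among the members, Rgr had r = 0.982, Lrat 0.947, Rdh5 0.826 and Rlbp1 -0.70 with Rpe65. Over the 9 RPE/choroid libraries the most like genes were Lactb (0.973), Fap (0.966), Stk4 (0.963), Clta (0.948) and Sptlc2 (0.948), and Rgr had 0.80, Rdh5 0.777 and Lrat -0.01. These r values are descriptions over libraries that share genotype, depth and dissection.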

How the data were processed

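Retina and RPE/choroid of KO, KI and WT mice were sequenced as stranded, ribosome-depleted total RNA, per the labels' protocols, while the use of strand in counting is not given in the sources used here. Build mm9, TopHat, Bowtie2 and Cufflinks are named, without versions, per the submitters' processing notes. The deposited gene tables give expected counts of fragments per library, which were rounded to whole numbers. The same deposited tables give FPKM, per the file headers, and further deposited tables give a p-value and q-value per gene and transcript lengths. Members and gene lists were chosen with earlier results of these data known.

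Counts of 9 libraries per tissue were fitted by the robust quasi-likelihood method of edgeR 4.0.16 under R 4.3.3, after filterByExpr and TMM scaling, and Benjamini-Hochberg adjusted p-values under 0.05 were called. Differences between tissues were an interaction over 18 libraries. Of these models, only the edgeR comparison of KO with WT within each tissue was run on simulated counts, with genes drawn independently. The outcome is not given here. The interaction, the added terms, DESeq2 and limma were not run on simulated counts. CPM was taken on library totals, since FPKM per CPM differed between libraries: in RPE/choroid it was 1.43-fold for Rpe65 and 0.878-fold for Rdh5 in libraries numbered 2 relative to the others. Alternatives used DESeq2 1.42.0, RLE, limma 3.58.1 on log2(FPKM + 1) and log2(FPKM + 0.1), no filter, the compared pair only, terms for sex, table number, RPE, lens or rod genes, and leaving out each library.

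Genes named are the members, up to 4 of each marker list by FPKM in the tissue it marks, called retinoid genes, Abca4, genes overlapping a member, and the 5 genes most like Rpe65 per tissue. Slc6a20a, Oca2, Best1, Cldn19, Fbln1, Lum, Ogn and Fmod were named after their values were seen. Table numbers 0 to 2 are not linked to the labels' replicate numbers. No pair of libraries of a group was identical.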

Additional observations from a re-analysis of the deposited data

Results flagged for a closer look

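The difference between tissues in the KO effect passed the test of the interaction for 2 members. Rpe65 had log2 -1.61 for the effect in RPE/choroid minus that in retina: KO over WT was log2 -0.14 in RPE/choroid and 1.48 in retina. Rgr had log2 -1.67, with KO over WT at log2 -0.24 in RPE/choroid and 1.44 in retina. Both genes lay above WT in 3 of 3 KO retinal libraries. WT retina held 0.298% of the RPE/choroid level of Rpe65 and 0.333% of that of Rgr. The 11 RPE markers that are no members had a median rise of 0.492% of the RPE/choroid level in KO retina. Pigment cell genes had a median of 0.261%, against 0.52% for Rpe65 and 0.557% for Rgr. The part of RPE RNA in the difference between tissues was not tested.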

How the results depend on the processing

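In KO against WT retina 3 members were called. DESeq2 called 5, adding Rdh5 and Rlbp1, and a sex term 4, adding Rdh5. The share of all genes called in each alternative fit is not given here. A fit that calls more genes in all may also call more members. Both limma fits and the compared pair alone gave 2 each, without Lrat (adjusted p 0.129, 0.117 and 0.06). A term for RPE markers left 0, with larger SEs and no smaller estimates for Rpe65, Rgr and Lrat. RLE, no filter and a lens term gave 3. Without single libraries 1 to 4 were called, and Rpe65 was called each time. In KI against WT retina 0 were called. DESeq2, the compared pair alone and a lens term each gave 2 (Rpe65 and Rgr), a sex term gave 1 (Rpe65), and leaving out single libraries gave 0. In KI against KO retina 0 were called, and DESeq2 gave 1 and the lens term 2. In RPE/choroid each of the 9 alternatives and 6 fits without 1 library gave 0 in all 3 comparisons. For the tissue difference of the KO effect 2 were called. DESeq2 gave 5, and fits without 1 library gave 2 to 4, with 4 without KO retinal library 2. For the KI effect DESeq2 gave 1 and the rest 0.

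With the table number as a replicate block, 2 members were called in KO against WT retina (Rgr was lost, adjusted p = 0.0638), 1 for the tissue difference of the KO effect and 0 elsewhere. Deviations from the group means of same-numbered libraries correlated at r from -0.462 (KI and KO retina, number 0) to 0.246 (KO and WT RPE/choroid, number 2), and in 0 of 6 comparisons were all 3 pairs above 0.1. Libraries numbered 2 shared a shift in FPKM per CPM. The numbers are not known to pair libraries.

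The share in KO retina, 0.492%, was 0.449% to 0.77% without single libraries, and 1 of these 9 values was beyond 1 SD. It was 0.261% from pigment genes, within 1 SD (0.257). The share in KI retina, 0.402%, was 0.0900% from pigment genes and 0.611% with all list markers higher in RPE/choroid, both beyond 1 SD (0.0488). It was 0.347% to 0.462% without single libraries, and 2 of these 9 values were beyond 1 SD.

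Of the single-gene values under alternatives, 457 kept direction and side of the threshold, 14 lost it, 11 gained it and 14 reversed. None of the reversed was called. Rrh in KI retina was log2 0.047 with the RPE marker term. In KO RPE/choroid Stra6 was -0.02 without KO library 1 and ran from -0.049 to 0.065 without single libraries, lowest without WT library 0, and Rdh10 ran from -0.21 to 0.068, highest without KO library 2. In KI RPE/choroid Stra6 was 0.0033 with either limma fit. Rrh was -0.076 with the sex term, -0.0066 with the rod term, and from -0.076 (without KI library 2) to 0.085 without single libraries, below 0 also without WT library 0 or 2. Rpe65 ran from -0.10 to 0.062, highest without KI library 0, and was 0.04 without WT library 0 and 0.04 without WT library 1. The cause was not tested.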
